A study of Homo sapiens with 4 samples.

Results

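Kinesins, centromere proteins and the genes of the spindle checkpoint were described in HUT78 cells, an established human cell line grown out from a cutaneous T-cell lymphoma. The members were all genes whose symbol in the platform annotation begins with KIF, CENP, NCAP, BUB, AURK, CCNA or CCNB followed by a family letter or number, or is SKA1, SKA2, SKA3, PLK1, PLK4, CDC20, CDK1, TTK, TOP2A, MKI67, TPX2, ASPM, NUSAP1, PRC1 or FOXM1. Of 14884 genes measured, 83 met this rule, through 89 probe sets, and the brightest probe set stood for each gene. The condensin genes beginning with NCAP were not analysed here, nor were TPX2, ASPM, CCNA1, CENPB, CENPE, CENPF and CENPS. The study compared cells given CSH71, a compound aimed, per the series title, at p38γ through its lipid-binding domain, at 250 nM for 30 h with untreated cells of the same line. There were 2 arrays per group, each an Affymetrix whole-transcript array of 1 sample's total RNA. All samples come from 1 cell line grown in serum, the untreated cells carry no named solvent control, and nothing in the labels tells whether duplicates were grown apart. The p-values thus reflect the spread of duplicates that may be no more than technical.

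The kinesins are motor proteins that walk along or take apart microtubules with the energy of ATP. One set builds the mitotic spindle, moves chromosomes and cuts the daughter cells apart, and its genes are transcribed mostly in the G2 and M phases of the cell cycle. Another set carries vesicles, organelles and RNA within the cell. Centromere proteins mark the site on each chromosome where the kinetochore forms, and the spindle checkpoint delays anaphase until every kinetochore is attached. In G1 and resting cells the DREAM complex keeps these genes silent, and in G2 the factors B-MYB and FOXM1 turn them on. Both act through a promoter element called CHR, and the CCAAT box, bound by NF-Y, usually lies close to it.

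None of the 83 genes passed the test across all genes, which was limma with Benjamini-Hochberg adjustment at 0.05: 0 were called higher and 0 lower, where 0.047% of all genes were called (0.0403% higher and 0.00672% lower). Below an unadjusted 0.05 there were 0 members higher and 2 lower, KIF18B and KIF20A, beside 5.1% of all genes, 3.2% higher and 1.9% lower. A 2-fold difference was reached by 0 members and by 0.235% of all genes, 0.202% higher and 0.0336% lower. The mitotic members nevertheless lay mostly on 1 side of 0. These are 52 genes in all, namely the mitotic kinesins, centromere and kinetochore proteins, checkpoint proteins and mitotic kinases, mitotic cyclins with CDK1, and 5 factors that include MKI67 and FOXM1. Of these, 41 had a log2 difference below 0, CSH71 minus untreated, and 11 above it. Their median was -0.13, and that of all genes was -0.01. Differences throughout are of log2(intensity + 16), a scale that understates the change of dim genes. Over all genes 52% had a difference below 0, and among genes brighter than the median gene, to which 49 of the 52 belong, 57.7% did.

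Both CSH71 arrays lay below both untreated arrays for 26 of the 52 mitotic members (50%) and above both for 2, SKA1 and PLK4. The same held for 16.6% and 15% of all genes, and for 20.3% and 12.9% of those brighter than the median gene. With 2 arrays against 2, an exact 2-sided permutation test cannot give a p under 0.333, so separated groups are no evidence for a single gene. The direction of the mitotic genes was known from earlier results on these arrays and is not independent evidence. In RNA from a whole culture, fewer cells in G2 and M and less RNA per such cell cannot be told apart.

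The differences were small and close to the spread between replicates. The 95% interval, not adjusted for the number of genes, lay within a 2-fold change in both directions for 81 of 83 members, the exceptions being KIF2B and KIF12. Untreated replicate 2 was above untreated replicate 1 for most mitotic members, by a median of 0.08, with 10 of 52 below it. Set against untreated replicate 1 alone, the median of the mitotic members was -0.08, with 35 of 52 below 0, and against untreated replicate 2 alone it was -0.17, with 46 below 0. For all genes, untreated replicate 2 was above replicate 1 by a median of 0.06. In single pairs of arrays the mitotic median ran from -0.05, for CSH71 replicate 1 against untreated replicate 1, to -0.17, for CSH71 replicate 2 against untreated replicate 2. Its sign was the same in these 4 pairs, but its size depended on which untreated array was used.

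**Figure D1:**
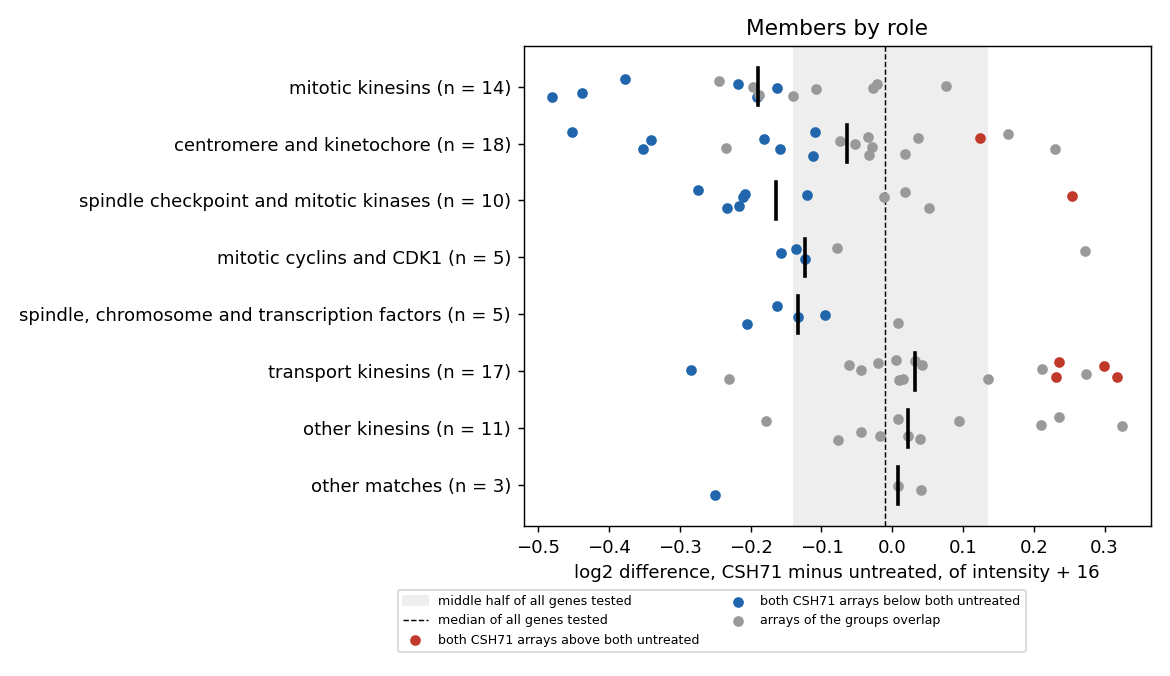
Log2 difference of each of the 83 members, CSH71 minus untreated (2 arrays each), by role, with the median of each role as a black bar and the median and interquartile range of all 14884 genes as a dashed line and grey band. The 5 mitotic roles have medians from -0.19 to -0.06, and the transport kinesins have a median of 0.03.

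Mitotic kinesins had the most negative median of the roles on all 4 arrays, but not without CSH71 replicate 1, where they had -0.17 and the checkpoint genes and kinases -0.19. All 14 on the list were measured, 13 had a difference below 0, and the median was -0.19. For 6 (42.9%) both CSH71 arrays lay below both untreated arrays and for 0 above, beside 16.6% and 15% of all genes. The lowest value was that of KIF18B, a plus-end kinesin that controls the length of astral microtubules. Its intensity was 645 and 605 in untreated replicates 1 and 2, and 480 and 409 in CSH71 replicates 1 and 2. The log2 difference was -0.48 ± 0.18 (moderated SE from limma, n = 2 per group, limma adjusted p = 0.930). Here and below, this SE draws on the spread of all genes as well as on the gene's own replicates. Both treated values of KIF18B lay clearly below the untreated ones. KIF20A, which carries the chromosomal passenger complex to the central spindle, was at 1159 and 1177 untreated and 893 and 824 treated. The untreated pair was very close and the gap between the groups was wider than either pair, with a log2 difference of -0.44 ± 0.17 (limma adjusted p = 0.941) and a 95% interval from -0.83 to -0.04.

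KIF4A, a chromosome-bound kinesin that sets the length of the central spindle, followed with 613 and 728 untreated and 529 and 493 treated (-0.38 ± 0.18). Its groups did not overlap, yet untreated replicate 1 lay nearer to CSH71 replicate 1 than to its own replicate. The probe set of KIF4B, an intronless copy of KIF4A with nearly the same sequence, gave -0.19 ± 0.19 with overlapping groups, and its signal may include KIF4A transcripts. KIF23, a subunit of the centralspindlin complex of cytokinesis, was at 2325 and 2385 untreated and 1891 and 2162 treated (-0.22 ± 0.17). KIF11, the motor that pushes the spindle poles apart, was at 2667 and 2816 untreated and 2347 and 2449 treated (-0.19 ± 0.17). KIF14, which acts with citron kinase in cytokinesis, was at 1345 and 1419 untreated and 1204 and 1261 treated (-0.16 ± 0.17). In these last 3 genes the difference was about the size of its moderated standard error, although no treated array reached an untreated one.

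The other mitotic kinesins had overlapping groups. KIF15, which can stand in for KIF11, had a difference of -0.20, and untreated replicate 2, at 1492, was well above untreated replicate 1, at 1146. KIF18A, which damps the movement of chromosomes at the metaphase plate, had -0.14, with the same array highest. KIF22, a kinesin on chromosome arms, had -0.11. KIF2B had -0.24 with treated values of 47.5 and 112, the widest spread of the list. KIFC1, a minus-end motor that gathers extra centrosomes, had -0.03, KIF2C, the microtubule depolymerase of the inner centromere, had -0.02, and KIF20B, another cytokinesis kinesin, had 0.08. KIFC1 has 4 probe sets, of which 2 hold identical values, and they gave differences from -0.36 to -0.03.

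**Figure D2:**
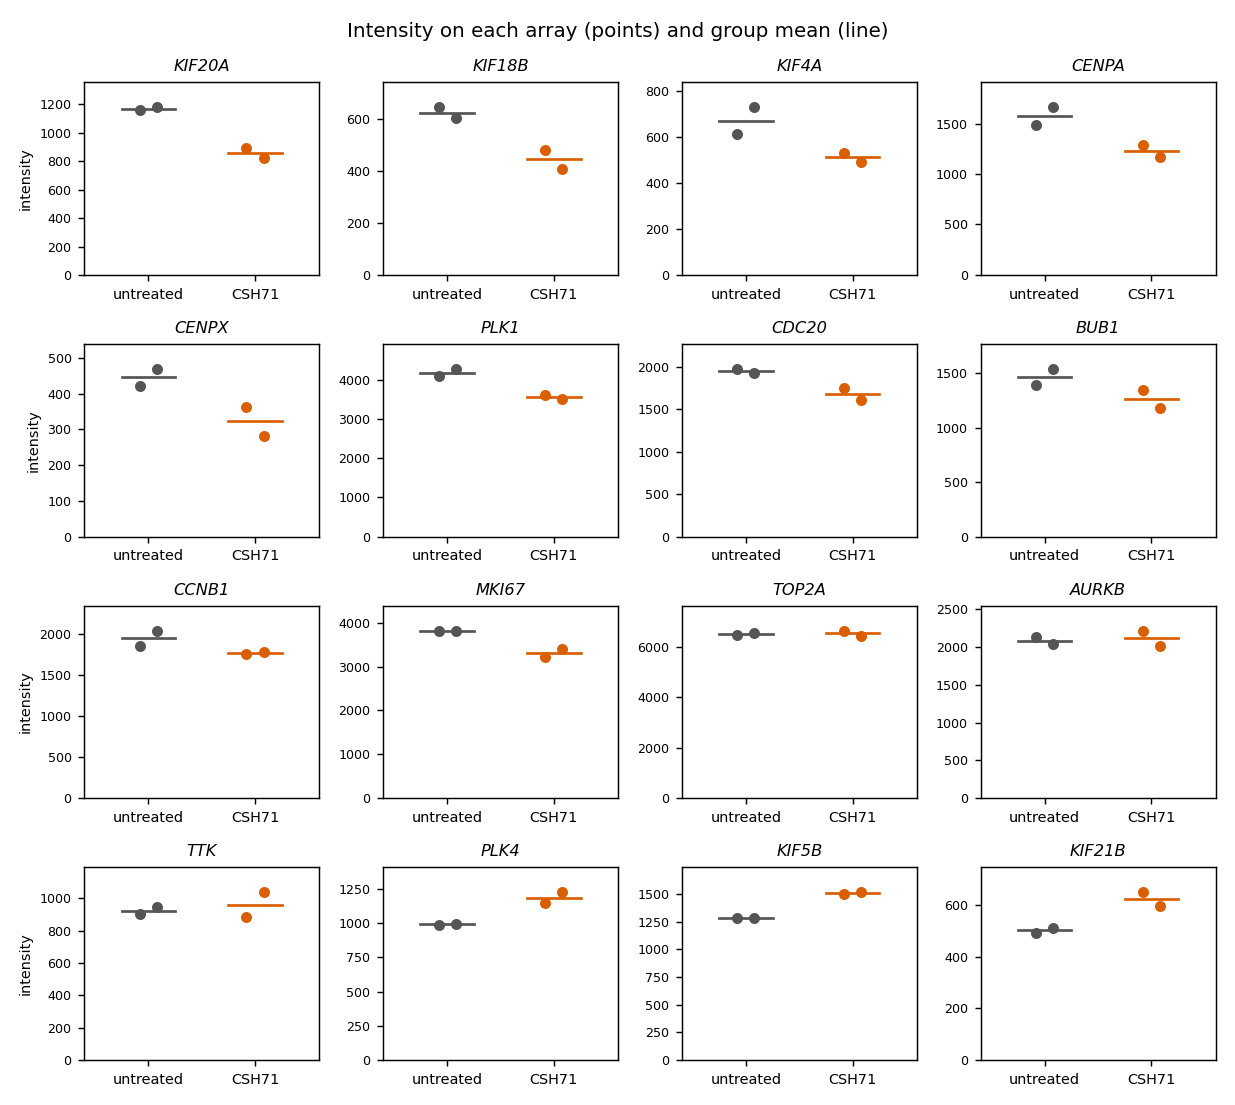
Intensity of 16 members on each array (points) with the mean of each group (lines), on axes that start at 0. KIF20A, KIF18B, CENPA, PLK1, CDC20 and MKI67 have both CSH71 arrays below both untreated arrays, TOP2A, AURKB and TTK overlap, and PLK4, KIF5B and KIF21B lie the other way.

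The choice of members did not use their promoters, in which many of the mitotic members, but not all, hold the same motifs. The motifs, however, were chosen as known elements of mitotic gene promoters. A higher share in mitotic members is therefore no independent finding. Promoter sequence was taken from RefSeq (GRCh38.p14), in windows of 250 bases before to 50 after the start site, and 67 of 83 members matched. A pair of CHR forms, TTTGAA and TTTAAA, and the CCAAT box were searched by their exact letters on both strands. A CHR form below means either of these spellings. No other spelling of the element was searched, so a promoter counted as without a CHR form may hold another. Of the mitotic members with a promoter sequence and both treated arrays lower, 16 held TTTGAA or TTTAAA. The other 7, namely CENPX, SKA2, CENPU, CENPW, CCNA2, AURKC and BUB1, held neither of these spellings. Of all mitotic members with a promoter sequence, separated or not, 29 of 45 (64.4%) held a CHR form. A link between the motif and lower values was not tested. The following lines give the last 100 bases before the start site, 5′ to 3′ on the strand of the gene, with those motifs in capitals, for 7 mitotic members with separated groups, picked after the count as examples that hold a CHR form, and then for 2 transport kinesins with both treated arrays higher. ATTGG is CCAAT read from the opposite strand, and TTTAAA reads the same on both.
KIF20A: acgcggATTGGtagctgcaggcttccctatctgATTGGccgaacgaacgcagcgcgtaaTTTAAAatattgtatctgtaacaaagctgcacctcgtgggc
KIF18B: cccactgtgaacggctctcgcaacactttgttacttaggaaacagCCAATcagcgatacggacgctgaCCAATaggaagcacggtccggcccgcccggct
KIF4A: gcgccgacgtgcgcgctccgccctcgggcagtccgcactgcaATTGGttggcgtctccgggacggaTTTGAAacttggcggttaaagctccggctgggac
CENPA: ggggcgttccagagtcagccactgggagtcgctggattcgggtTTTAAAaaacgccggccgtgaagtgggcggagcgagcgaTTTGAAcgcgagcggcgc
PLK1: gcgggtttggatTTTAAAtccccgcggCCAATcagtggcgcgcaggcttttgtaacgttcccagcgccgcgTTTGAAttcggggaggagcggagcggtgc
CCNB1: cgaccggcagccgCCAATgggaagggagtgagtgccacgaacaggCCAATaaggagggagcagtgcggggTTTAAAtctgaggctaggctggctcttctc
CDC20: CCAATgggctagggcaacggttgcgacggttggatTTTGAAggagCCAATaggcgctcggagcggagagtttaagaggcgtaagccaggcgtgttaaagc
KIF5B: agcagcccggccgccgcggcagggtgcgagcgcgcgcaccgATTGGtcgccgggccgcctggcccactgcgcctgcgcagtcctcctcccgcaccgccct
KIF3A: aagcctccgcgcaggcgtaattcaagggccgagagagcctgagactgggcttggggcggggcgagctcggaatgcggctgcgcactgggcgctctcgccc

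On the plus strand these stretches are chr5:138179012-138179111 for KIF20A, chrX:70290004-70290103 for KIF4A, chr2:26785956-26786055 for CENPA, chr16:23678789-23678888 for PLK1, chr5:69167050-69167149 for CCNB1 and chr1:43358881-43358980 for CDC20. On the minus strand they are chr17:44947774-44947873 for KIF18B, chr10:32056426-32056525 for KIF5B and chr5:132737547-132737646 for KIF3A. In KIF20A the first base of TTTAAA lies 41 bases before the start site and the CCAAT boxes begin 67 and 94 bases before it. In KIF4A the TTTGAA begins 34 bases before the start and the CCAAT box 58. In CCNB1 the order is the same, with TTTAAA at 30 and CCAAT at 55 and 87 bases. KIF18B has its TTTGAA beginning at base 3 after the start, outside the printed stretch, and KIF5B has one 140 bases before the start.

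A CHR form lay in 29 of 45 mitotic promoters (64.4%, 95% Wilson interval 49.8 to 76.8%), in 2 of 12 promoters of transport kinesins (16.7%, 4.70 to 44.8%) and in 24.3% of all 27305 promoters of the same length. TTTGAA alone lay in 57.8% of the mitotic promoters and 15.4% of all, and TTTAAA in 22.2% and 12.3%. The CCAAT box lay in 33 of the 45 (73.3%, 59 to 84%), in 3 of the 12 (25%) and in 35.7% of all. Both a CHR form and a CCAAT box lay in 22 of the 45 (48.9%), in 1 of the 12 (8.33%), which is KIF5B, and in 9.49% of all. Among the 14 mitotic kinesins, 12 held a CHR form and 10 held both. Exact forms of the E2F site, TTTCGCGC, TTTGGCGC, TTTCCCGC and TTTGCCGC, lay in 5 of the 45 (11.1%) and in 3.33% of all promoters. These counts are of letters in a window and show no binding.

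The differences of genes with and without the motifs were set side by side, and no test was made. Mitotic members with a CHR form had a median log2 difference of -0.16, with 23 of 29 below 0, and those without had -0.11, with 12 of 16 below 0. Among the 1982 genes with a CHR form that are no members, the median was -0.01 and 51.3% lay below 0, against -0.02 and 53.6% for the 8700 without one. Mitotic members with both a CHR form and a CCAAT box had a median of -0.16, with 19 of 22 below 0. The other mitotic members had -0.11, with 16 of 23 below 0. Among genes that are no members, 51.3% of the 790 with both lay below 0, against 53.4% of the 9892 others. Neither difference between mitotic members with and without the motifs was tested.

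**Figure D3:**
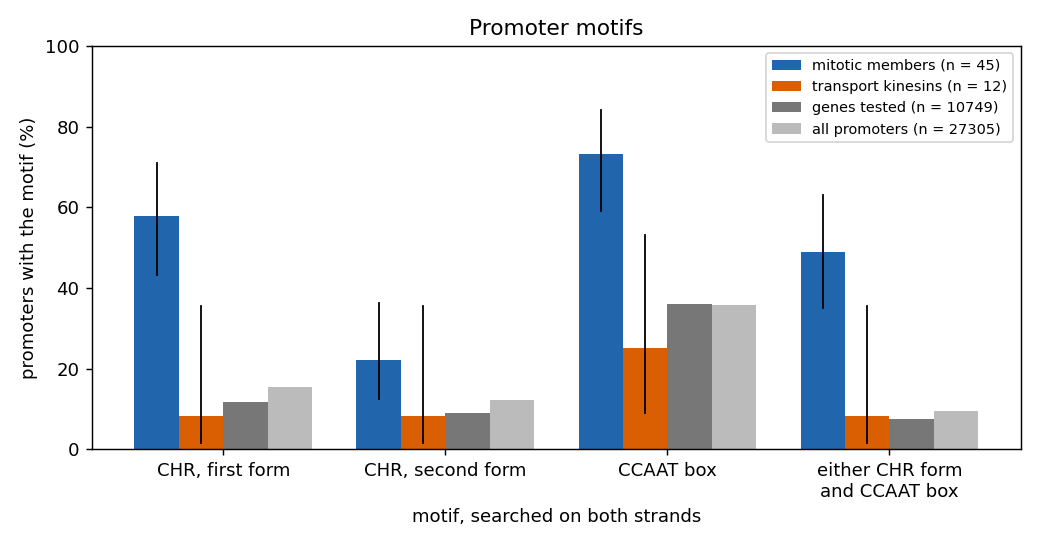
Percent of promoters that hold each motif on either strand, for mitotic members, transport kinesins, all genes tested that have a promoter sequence, and all promoters, with 95% Wilson intervals as lines on the first pair. A CHR form together with a CCAAT box lies in 48.9% of mitotic promoters and 9.49% of all.

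Transport kinesins differed from the mitotic ones in the side of 0 on which they lay. All 17 on the list were measured: 12 had a difference above 0 and 5 below, 4 had both CSH71 arrays above both untreated arrays and 1 the reverse, and the median was 0.03. Without untreated replicate 2 that median was 0.12, and without CSH71 replicate 2 it was 0.17. The share with both treated arrays higher was 23.5%, beside 15% of all genes. The median of the mitotic kinesins minus that of the transport kinesins was -0.22. When each of the 4 arrays was left out in turn this difference ran from -0.33 to -0.20, so its direction did not depend on a single array. It is a description of 2 lists that were measured on the same arrays, and no test was made of it. The mitotic kinesins are also brighter as a list, with 13 of 14 above the median gene against 10 of 17 transport kinesins, and the part of brightness in the result was not tested.

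KIF5B, the heavy chain of conventional kinesin-1 in most tissues, was at 1281 on both untreated arrays and at 1505 and 1517 on the treated ones. Replicates nearly coincided and the groups were well apart, with a log2 difference of 0.24 ± 0.16 that did not pass (limma adjusted p = 0.999). KIF21B, a kinesin that also limits microtubule growth and is known from neurons and lymphocytes, was at 493 and 513 untreated and 650 and 596 treated (0.30 ± 0.17). KIF3A, a motor subunit of heterotrimeric kinesin-2, was at 803 and 931 untreated and 1007 and 1030 treated (0.23 ± 0.17), and its partner KIF3B was level at 451 and 420 against 433 and 444 (0.01 ± 0.17). KIF3C, the alternative partner, was at 103 and 100 untreated and 152 and 112 treated (0.32 ± 0.20), where CSH71 replicate 1 alone made most of the difference. The 1 transport kinesin lower on both treated arrays was KIFC2, at 106 and 121 untreated and 88 and 91.9 treated (-0.28 ± 0.17).

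The other transport kinesins, 12 with KIF3B, overlapped between groups. KIF1A, KIF1B, KIF16B, KIF17, KIF21A, KIF1C and KIF5A lay between -0.06 and 0.04. KIF13B had 0.14, KIFC3 0.21, KIF5C 0.27 and KIF13A -0.23, and the intensities of the last 3 were all under 80. KIF1B has a second, dimmer probe set, which gave -0.19 where the one used gave 0.03. The cargo-binding partners of these motors were looked at as well: of 12 listed 9 were measured, 0 were called, 6 had a difference above 0, and the median was 0.08. KLC1, a light chain that ties kinesin-1 to cargo, was at 740 and 786 untreated and 1019 and 980 treated (0.38 ± 0.17, limma adjusted p = 0.990), so both treated arrays were higher, as for its heavy chain KIF5B. KIFAP3, the cargo subunit of kinesin-2, was at 726 and 988 untreated and 1041 and 985 treated (0.25 ± 0.20), with overlap and with untreated replicate 1 as the low array. It has a second probe set, and the mean of both gave 0.13. Without untreated replicate 1 its difference was 0.0348. Without untreated replicate 1 the median of these partners was -0.0021.

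**Figure D4:**
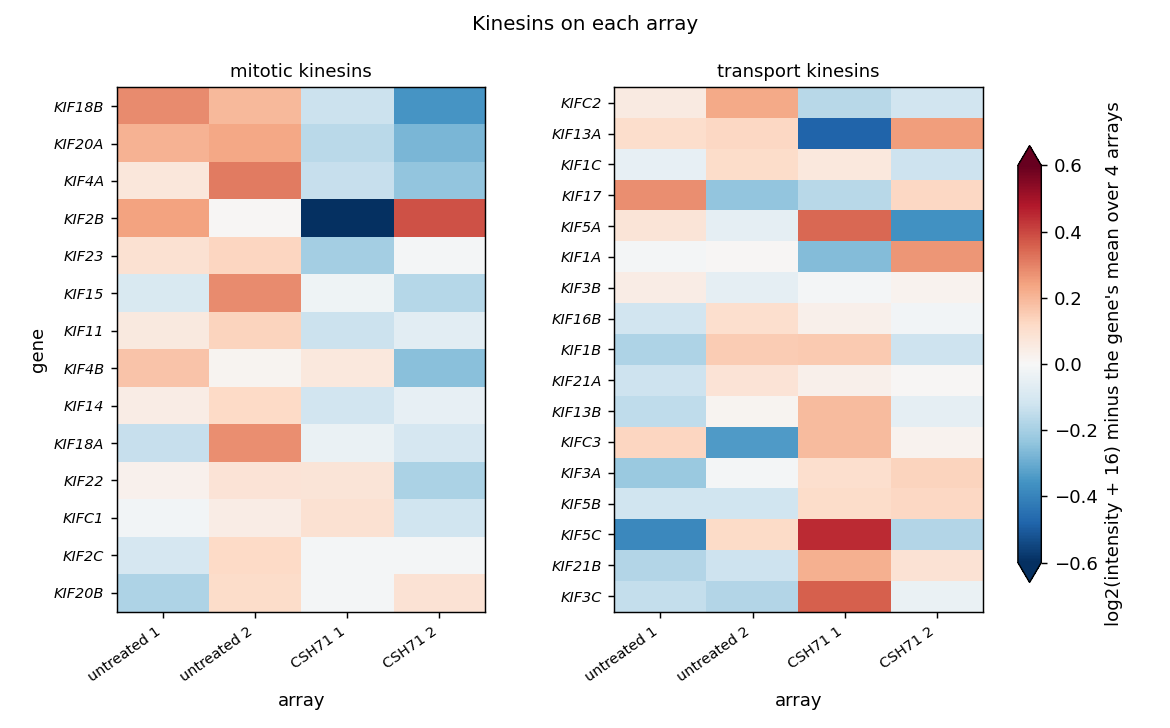
Log2(intensity + 16) of each mitotic (14) and transport (17) kinesin on each array, minus the gene's mean over the 4 arrays. KIF18B, KIF20A, KIF4A, KIF23, KIF11 and KIF14 are above their mean on both untreated arrays and below it on both CSH71 arrays, while KIF3A, KIF5B, KIF21B and KIF3C are below it on both untreated arrays.

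The remaining 11 kinesins, mostly with roles in cilia or signalling or with less known ones, had a median of 0.02. Of these, 7 lay above 0 and 4 below, with overlapping groups in all 11. KIF2A, a depolymerase of spindle poles and of neurons, was counted here and not with the mitotic kinesins. It was at 2288 and 2440 untreated and 2336 and 2247 treated (-0.04 ± 0.17). KIF24, which acts at the base of cilia, was at 185 and 272 untreated and 237 and 162 treated (-0.18 ± 0.25). KIF9, a kinesin of motile cilia, was at 139 and 217 untreated and 248 and 174 treated (0.24 ± 0.26). In both, each group's arrays spanned most of the range of the other's. KIF6 was at 23.8 and 28.0 untreated and 27.1 and 38.4 treated (0.21 ± 0.19), and KIF12 at 83.2 and 34.4 untreated and 76.9 and 68.4 treated (0.32 ± 0.31). The positive value of KIF12 came from the 1 low untreated array, replicate 2. KIF7, KIF19, KIF25, KIF26A, KIF26B and KIF27 lay between -0.08 and 0.09. For KIF27 the probe sets that were not used gave -0.64 and 0.58 at intensities of at most 18.5. KIF9-AS1 met the rule by its name alone and is an antisense transcript of KIF9, at 57.0 and 45.9 untreated and 72.1 and 35.9 treated (0.01 ± 0.27). Whether the probe sets of KIF9 and KIF9-AS1 overlap in position or mix their signals was not examined. The other matches by name were CENPV, which is not part of the kinetochore core, at 747 and 801 untreated and 827 and 767 treated (0.04 ± 0.17), and the pseudogene CENPBD2P, at 155 and 138 untreated and 131 and 111 treated (-0.25 ± 0.18). CENPV overlapped, and CENPBD2P was lower on both treated arrays.

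Centromere and kinetochore genes had a median of -0.06 over 18 measured of 23 listed, with 13 below 0 and 5 above. Both CSH71 arrays were lower for 7 (38.9%) and higher for 1, beside 16.6% and 15% of all genes. The median was -0.14 without untreated replicate 1 and -0.03 without untreated replicate 2. CENPA, the histone H3 variant that marks the centromere, was at 1490 and 1659 untreated and 1292 and 1167 treated. The groups did not overlap, and the log2 difference was -0.35 ± 0.17 (limma adjusted p = 0.992). Its 95% interval reached from -0.76 to 0.06. CENPX, a histone-fold protein shared by the kinetochore and the Fanconi anaemia pathway, was at 422 and 468 untreated and 363 and 283 treated (-0.45 ± 0.19). CENPM, of the constitutive centromere network, was at 345 and 413 untreated and 312 and 279 treated (-0.34 ± 0.18). These 3 had the lowest values of the role.

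The chaperone that places CENPA at the centromere, HJURP, was no member but stood in a list of other kinetochore and checkpoint genes. It was at 1106 and 1252 untreated and 870 and 822 treated, a log2 difference of -0.47 ± 0.17 (limma adjusted p = 0.930), with both treated arrays lower. OIP5, a subunit of the licensing complex for CENPA, was at 240 and 356 untreated and 245 and 184 treated (-0.44 ± 0.24) with overlapping groups, while MIS18A of the same complex was at 0.00. Most other CENP genes among the members lay near 0. CENPC, which links CENPA to the outer kinetochore, was at 483 and 526 untreated and 476 and 508 treated (-0.03 ± 0.17). CENPI, CENPK, CENPO, CENPP, CENPL and CENPT lay between -0.07 and 0.04. CENPU was at 2437 and 2429 untreated and 2256 and 2243 treated (-0.11 ± 0.16), a small gap between tight pairs. CENPW also had -0.11, but its gap, from 1158 to 1126, was smaller than the spread of the untreated pair. CENPH had -0.23 with overlap. CENPQ, at 512 and 623 untreated and 585 and 755 treated (0.23 ± 0.20), and CENPN (0.16 ± 0.20) had the highest values, both with overlap.

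The 3 subunits of the SKA complex, which couples kinetochores to the tips of microtubules, each differed from 0 by about 1 moderated standard error. SKA2 had -0.18 ± 0.17 and SKA3 -0.16 ± 0.17, with both treated arrays lower, and SKA1 had 0.12 ± 0.17, at 586 and 623 untreated and 633 and 687 treated. The difference between these subunits was not tested. In the list of other kinetochore and checkpoint genes, 12 of 23 were measured, 0 were called and the median was -0.05. It was 0.0603 without untreated replicate 2, also above 0 without CSH71 replicate 2, and -0.12 without CSH71 replicate 1. NDC80, the main microtubule receptor of the kinetochore, had -0.23 with both treated arrays lower, and the checkpoint proteins MAD2L1 and MAD1L1 had 0.04 and 0.08.

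Among spindle checkpoint proteins and mitotic kinases, all 10 listed were measured and the median was -0.16. Both CSH71 arrays were lower for 6 of 10 and higher for 1, beside 16.6% and 15% of all genes. PLK1, the kinase that drives mitotic entry and spindle assembly, was at 4105 and 4281 untreated and 3616 and 3515 treated, a log2 difference of -0.23 ± 0.17 (limma adjusted p = 0.999). Both pairs of replicates were tight beside the gap between them. When limma's variance prior was made to follow intensity, PLK1 was the 1 member called (lower, adjusted p = 0.0429). That prior had infinite degrees of freedom, so the spread of PLK1 itself did not enter its p. PLK4, the kinase that starts the duplication of centrioles, lay the other way, at 990 and 998 untreated and 1151 and 1227 treated (0.25 ± 0.17).

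CDC20, which activates the anaphase-promoting complex and is held by the checkpoint, was at 1973 and 1927 untreated and 1754 and 1614 treated (-0.21 ± 0.17). BUB1, a checkpoint kinase of the kinetochore, was at 1396 and 1541 untreated and 1344 and 1181 treated (-0.22 ± 0.18). BUB1B, which encodes the checkpoint protein BUBR1, was at 1284 and 1405 untreated and 1236 and 1089 treated (-0.21 ± 0.17). In each the groups were separate, but the nearest treated and untreated arrays of BUB1 and BUB1B were closer than the replicates. BUB3, their partner, was level (-0.01 ± 0.17), and so was TTK, the kinase that starts checkpoint signalling, at 905 and 943 untreated and 886 and 1037 treated (0.05 ± 0.18).

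The Aurora kinases differed in value from one another. AURKA, of the centrosome and spindle poles, was at 1117 and 1139 untreated and 1040 and 1033 treated (-0.12 ± 0.16), a small but separated difference. AURKB, the catalytic part of the chromosomal passenger complex, was at 2139 and 2036 untreated and 2217 and 2012 treated (0.02 ± 0.17), with full overlap. AURKC, chiefly a germ-cell kinase, was at 95.8 and 90.3 untreated and 74.3 and 73.9 treated (-0.28 ± 0.17). The partners of AURKB stood in a list of passenger and cohesion genes, where 15 of 17 were measured, 0 were called, 9 were above 0 and the median was 0.03. BIRC5, which encodes survivin, had -0.19 ± 0.17, at 1337 and 1418 untreated and 1257 and 1153 treated. SMC4, a core subunit of condensin, lay far on the other side at 1909 and 2192 untreated and 2895 and 3027 treated, a log2 difference of 0.53 ± 0.17 (limma adjusted p = 0.928), and its partner SMC2 had 0.09 with overlap.

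Of the mitotic cyclins and CDK1, 5 of 6 listed were measured, with a median of -0.12, which was -0.05 without untreated replicate 2. For 3 of the 5 both treated arrays were lower, as for 16.6% of all genes. CCNB1, cyclin B1, the main partner of CDK1 at mitotic entry, was at 1852 and 2035 untreated and 1754 and 1776 treated (-0.14 ± 0.17). CCNB2 was at 1514 and 1750 untreated and 1465 and 1451 treated (-0.16 ± 0.17), and CCNA2, cyclin A2 of S and G2 phase, at 2414 and 2602 untreated and 2334 and 2266 treated (-0.12 ± 0.17). In all 3 cyclins the gap from untreated replicate 1 to the treated arrays was smaller than the gap between the untreated replicates. CDK1 was at 975 and 1015 untreated and 903 and 982 treated (-0.08 ± 0.17), with overlap. CCNB3, a cyclin of meiosis, read 91.2 and 61.8 untreated and 97.6 and 91.0 treated (0.27 ± 0.21).

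Of the remaining factors 5 of 7 were measured, with a median of -0.13, which was -0.09 without untreated replicate 2 and -0.07 without CSH71 replicate 2. MKI67, which encodes the proliferation marker Ki-67 that coats mitotic chromosomes, was at 3812 and 3815 untreated and 3213 and 3400 treated (-0.21 ± 0.17, limma adjusted p = 0.999). The untreated arrays coincided and both treated arrays were lower. FOXM1, the transcription factor of many genes described here, was at 1136 and 1148 untreated and 1098 and 1040 treated (-0.09 ± 0.17). NUSAP1, a microtubule bundler near chromosomes, was at 1916 and 1896 untreated and 1536.5 and 1881 treated (-0.16 ± 0.18). CSH71 replicate 2 was almost level with the lower untreated array, and CSH71 replicate 1 alone made most of the difference. PRC1, the bundler of the central spindle and partner of KIF4A, was at 1451 and 1564 untreated and 1438 and 1309 treated (-0.13 ± 0.17). TOP2A, the topoisomerase that untangles chromosomes, was level at 6447 and 6536 untreated and 6631 and 6432 treated (0.01 ± 0.16), with a 95% interval of -0.38 to 0.40.

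Other genes of mitosis were read as lists that hold no member. In spindle and cytokinesis genes, 13 of 18 were measured, 0 were called, 12 were below 0 and the median was -0.11. CKAP2, a microtubule stabiliser of the spindle, was at 535 and 723 untreated and 512 and 501 treated (-0.29 ± 0.20), and its untreated arrays were far apart. RACGAP1, the partner of KIF23 in centralspindlin, was at 326 and 384 untreated and 294 and 319 treated (-0.20 ± 0.18). Both were lower on both treated arrays, by less than the spread of the untreated pair at the nearest points. Without untreated replicate 2 the median of this list was -0.02. In the anaphase-promoting complex, 15 of 16 were measured, 0 were called, 12 were below 0 and the median was -0.05. It was 0.0235 without untreated replicate 2 and -0.12 without untreated replicate 1. The subunits furthest from 0 were ANAPC13 and ANAPC4. ANAPC13 was at 690 and 937 untreated and 728 and 659 treated (-0.21 ± 0.20). ANAPC4 was at 479 and 741 untreated and 656 and 699 treated (0.18 ± 0.23). Both overlapped, since their untreated arrays disagreed.

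Among other regulators of G2 and M, 19 of 21 were measured, 0 were called, and the median was -0.04, with 12 below 0. It was 0.0119 without CSH71 replicate 2, and -0.12 and -0.10 without untreated replicate 1 and CSH71 replicate 1. NEK2, a kinase of centrosome separation, was at 644 and 766 untreated and 795 and 868 treated (0.24 ± 0.18), with both treated arrays higher. PBK, a mitotic kinase, was at 426 and 505 untreated and 428 and 361 treated (-0.23 ± 0.19), with overlap. MYBL2, which encodes B-MYB, was at 1394 and 1475 untreated and 1363 and 1269 treated (-0.12), with both treated arrays lower. Of cell-cycle inhibitors and quiescence genes 6 of 15 were measured, 0 were called and the median was 0.02, with 4 above 0. That median lay between -0.0342 and -0.0029 when any 1 of the 4 arrays was left out, so it has no settled sign. KLF2, a quiescence factor of T cells, was at 203 and 135 untreated and 150 and 100.98 treated (-0.38 ± 0.26). CCNG2, an atypical cyclin of resting cells, was at 487 and 625 untreated and 520 and 487 treated (-0.13 ± 0.19). Both overlapped. RBL2, which encodes the DREAM subunit p130, was at 976 and 951 untreated and 970.2 and 984 treated (0.02), with overlap.

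As a check of the labelled cell, 9 of 16 T-cell genes were measured, with a median of -0.04 and 0 called. CD4 read 403 and 452 untreated and 441 and 384 treated, and CD247, the zeta chain of the T-cell receptor complex, 1415 and 1144 untreated and 1020 and 1044 treated. CD2 read 91.6 and 66.8 untreated and 60.9 and 85.1 treated, and CD28 read 67.2 and 83.0 untreated and 107 and 65.0 treated, so these T-cell genes were dimmer than the median gene. CD3D, CD3E and CD3G were not analysed here. Markers of B cells (4 of 8 measured, median 0.03), monocytes (7 of 9, -0.03) and fibroblasts and epithelia (6 of 10, -0.01) had 0 genes called. These medians and calls compare the groups and do not tell the cell type. Brighter than the median gene were 7 T-cell genes, 2 B-cell, 1 monocyte, and 3 fibroblast and epithelial markers. PAX5, CD22, CSF1R and KRT18 were among them. The epithelial marker EPCAM, also among them, read 2087 and 2036 untreated and 1943 and 2169 treated, level between groups, and its part in the results was not tested. Array medians over all 53617 probe sets lay between 71.5 and 81.1. The table has no detection calls, so a dim value cannot be told apart from background, and 2 arrays per group set the precision.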

How the data were processed

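The deposited table holds linear intensities, 1 per probe set and array, that the authors made with Affymetrix Expression Console, per the submitters' processing notes. Which version, summary method and normalization it used is not given in the sources at hand. Names came from the platform annotation: of 53617 probe sets, 16098 had 1 symbol and 37519 had none there, and all 16098 entrez identifiers matched RefSeq. The brightest probe set stood for each of the 779 genes with several. The scale was log2(intensity + 16), without further normalization, and 16 was kept from earlier work on these arrays.

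The groups were compared with limma 3.58.1 in R 4.3.3, fitted on all 14884 genes with 2 group means, default moderation and Benjamini-Hochberg adjustment of 2-sided p-values. The procedure was tested on simulated data. Lists are described by counts and medians, with no list test. Values on every array were given for 13 genes fixed by name where measured, up to 4 members per role by smallest p and any member under 0.05, and for up to 2 genes of each other list of mitosis. Further genes given with values were chosen after these had been seen. The members and lists were chosen with earlier results of these data known. Motifs were counted in RefSeq promoters of chromosomes 1 to 22, X and Y, with a single entry kept per gene. For the counts, members were matched by entrez identifier. The genes tested, and so the log2 differences with and without a motif, were matched by symbol. Wilson intervals cover counting error only.

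Deviations from the group means correlated at -0.29 between same-numbered arrays over all genes, so replicate numbers were not taken to pair samples. The negative value means that opposite-numbered arrays shared some variation, which the main fit did not model. Alternatives were the replicate block, quantile normalization, median centring, removal of the dimmest 40% of genes, an intensity-following or robust prior, averaging of probe sets per gene, pseudocounts of 1 and 64, each array left out in turn, and for motifs the gene's strand only or a window from 100 bases before the start. A crossed replicate block was added after the data had been seen. Figures were drawn with matplotlib 3.10.9.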

Additional observations from a re-analysis of the deposited data

How the results depend on the processing

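No member was called higher in any of the 14 alternatives. One was called lower, PLK1 (adjusted p = 0.0429), with the prior that follows intensity, and that setting also called 1 of the other genes higher, SMC4 (5.59e-08), and 1 lower, HJURP (0.0295). The replicate block left 0 members called with unchanged medians (mitotic members -0.128). The crossed block gave 0 calls among members and 0 among all genes (1288 below 0.05 by limma before adjustment), against 27 with the numbers as given and 7 without a block. Other settings with 0 calls among all genes were quantile normalization (964 below 0.05 before adjustment), a pseudocount of 1 (768) and the removal of untreated replicate 1 (794) or 2 (609). There were 143 calls with the prior that follows intensity, 27 after median centring, 33 with a pseudocount of 64, 11 without dim genes, and 29 and 20 without CSH71 replicates 1 and 2.

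The count of mitotic members below 0 was 39 to 41 in the other settings and 35 to 46 with an array left out. Then, medians ran from -0.17 to -0.0761 for mitotic members, -0.22 to -0.14 for mitotic kinesins, -0.14 to -0.0341 for centromere genes, -0.18 to -0.0542 for cyclins and CDK1, -0.19 to -0.12 for checkpoint genes and kinases, -0.16 to -0.0665 for the factors with FOXM1, 0.0301 to 0.17 for transport kinesins, -0.0162 to 0.14 for other kinesins, -0.0021 to 0.16 for kinesin partners, -0.017 to 0.0557 for passenger and cohesion genes, -0.12 to 0.0235 for the anaphase-promoting complex, -0.12 to 0.0119 for other G2 and M regulators, -0.12 to 0.0603 for other kinetochore genes, -0.0342 to -0.0029 for cell-cycle inhibitors (0.0172 on all arrays) and -0.17 to -0.0161 for other spindle genes. Mitotic minus transport kinesins ran from -0.33 to -0.20 and was -0.18 with a pseudocount of 64. Without dim genes the checkpoint median was -0.12 and that of cell-cycle inhibitors -0.0571; fewer genes entered each.

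Small or noisy differences changed sign when an array was left out: TOP2A ran from -0.0133 to 0.0306, AURKB from -0.0521 to 0.0869, TTK from -0.0598 to 0.16, CENPV from -0.0129 to 0.0947, KIF9 from -0.0584 to 0.53, KIF12 from -0.16 to 0.81, KIF24 from -0.44 to 0.0802, KIF9-AS1 from -0.37 to 0.39, ANAPC13 from -0.43 to 0.0048, ANAPC4 from -0.13 to 0.49 and CCNG2 from -0.30 to 0.0457. KIF9-AS1 was also -0.0543 after quantile normalization and -0.0069 with a pseudocount of 1.

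On the gene's strand only, CCAAT lay in 40% of mitotic, 8.33% of transport and 20.8% of all promoters. TTTGAA lay in 42.2% of mitotic and 8.46% of all promoters. A CHR form with CCAAT lay in 24.4% of mitotic, 0.0% of transport and 4.29% of all promoters. In the shorter window the E2F forms lay in 4.44% of mitotic and 1.71% of all promoters. Each CHR form, either of them, and either with CCAAT lay in 0.0% of transport promoters there. Either CHR form with CCAAT lay there in 42.2% of mitotic and 2.78% of all promoters. Both settings search fewer letters.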
